A study of Mus musculus with 6 samples.

Results

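The complement and coagulation genes of the liver were compared between acute ethanol-exposed mice and control mice. Members are the genes that the deposited table assigns to the KEGG pathway of complement and coagulation cascades, apart from those whose symbol begins with Serpin. The rule gave 79 of 28880 genes and left out 13 Serpin genes. Among the 79, 44 belong to complement, 34 to coagulation, fibrinolysis and the kinin system, and 1 (Itgb2l) to neither class. The expression values played no part in the choice. Liver RNA was sequenced for 3 mice after acute ethanol and 3 controls, all male wild-type C57BL/6J of 6 to 8 weeks and all labelled as batch 1. The ethanol-exposed mice were fasted for 12 h, received 50% ethanol once by mouth at 6 g/kg and were sampled 24 h later. The control mice received no ethanol, and the sources used here do not say whether they were fasted, so ethanol and fasting cannot be told apart. A single high dose models acute injury and not chronic drinking.

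Most plasma clotting factors and complement proteins are made by hepatocytes. In coagulation, a chain of proteases ends in thrombin, which cuts fibrinogen to fibrin, and plasmin dissolves the clot. In complement, the classical, lectin and alternative pathways converge on C3, and the terminal components then form a membrane pore. Fibrinogen and several complement proteins are also known as acute-phase proteins, whose synthesis in hepatocytes follows interleukin-6 through STAT and C/EBP transcription factors.

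Between 60514417 and 74210869 reads per library were counted on genes. The hepatocyte markers fixed for the check (Alb, Ttr, Apoa1, Apob, Serpina1a, Cyp2e1 and Hnf4a, with Tf not found under that symbol) were detected in all 6 libraries, with summed levels of 43961 to 47856 FPKM in ethanol and 38207 to 44067 FPKM in control. By edgeR with the TMM scaling described next, 2 of the 7 rose, Apoa1 (log2 fold change 1.24) and Cyp2e1 (1.45), and the other 5 ran from 0.09 (Apob) to 0.82 (Alb). The part of these markers in the members' values was not tested. FPKM is the deposited level per transcript length and library size, so marker sums in FPKM here and below follow library size alone and not the scaling used for the tests. The library of ethanol replicate 3 stood apart from the other 5 on the second principal component (-47.3, against 0.673 to 26.8). Fibrinogen genes took 4.47% of its counts, against 2.34% and 1.79% in ethanol replicates 1 and 2 and 1.12% to 1.18% in control mice. Results that rest on this library are therefore given with and without it.

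Counts were scaled by TMM, which assumes that most genes do not differ and gave factors of 0.768 to 0.836 for ethanol and 1.26 to 1.27 for control libraries. Levels in CPM below are TMM-scaled counts, divided by the library size times its factor. The libraries therefore do not sum to the same total in CPM. With library size alone, the median over all tested genes moved from -0.04 to -0.71 in log2 fold change, and the members moved with it, from 49 of 72 above 0 to 17 of 72. Relative to the median of all tested genes, 28 of 42 complement and 21 of 29 coagulation genes lay higher in ethanol-exposed mice under either scaling. Relative medians were 0.22 for complement with and without the factors, and for coagulation 0.50 with and 0.51 without them. With limma on log2(FPKM + 1), however, 17 of 41 complement genes lay above the median of all genes tested (relative median -0.05) and 21 of 28 coagulation genes did (0.14). With limma on log2(FPKM + 0.1), 28 of 41 complement genes lay above that median (relative median 0.13). With log2(FPKM + 1) and a mean FPKM of at least 1, 17 of 33 did (0.02). Small changes are therefore read relative to the other genes of the same libraries. For complement the relative median was below 0 only with limma on log2(FPKM + 1) at the lower FPKM limit. In whole liver, fewer cells of a type and less RNA per cell cannot be told apart.

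Coagulation genes rose more often than complement genes in ethanol-exposed mice. DEGs were defined by an adjusted p under 0.05 in edgeR's quasi-likelihood test and a log2 fold change beyond 1, the thresholds of the study. Of all 16717 genes tested, 10.4% rose and 13.8% fell. Among the 29 coagulation genes tested, 8 rose (27.6%) and 0 fell, and these were Fga, Fgb, Fgg, F12, Kng2, Thbd, Plaur and Plat. Among the 42 complement genes tested, 3 rose (7.14%) and 0 fell, and these were C4a, Clu and Vtn. The share of coagulation genes that rose was above the background of all genes and that of complement genes was below it, a description that carries no test of the difference between the classes. By edgeR with an unadjusted p under 0.05 and the same fold threshold, 1 coagulation gene (A2m) and 0 complement genes were lower, against at least 13.8% of all genes tested. DESeq2 called 1 coagulation gene (F13a1) and 0 complement genes lower, and limma on log2(FPKM + 1) called F11 in coagulation and Cd59a and Hc in complement lower, where DESeq2 called 13.3% and limma 10.7% of all genes they tested lower. Itgb2l fell. The other 7 members (Bdkrb1, Bdkrb2, F13a1, F2rl2, F2rl3, Cr2 and Cd55b) had too few counts to pass edgeR's filter.

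With the adjusted p alone and no threshold on the fold change, 18 coagulation genes were higher and 2 (Tfpi and F11) lower, against 11 higher and 2 lower (Cd55 and Hc) in complement. Over all genes tested, 21.5% were higher and 21.5% lower by that rule. These counts moved with each library left out in turn. Coagulation then had 11 to 19 genes higher and 1 to 4 lower, and complement 6 to 17 higher and 0 to 3 lower. The median log2 fold change was 0.46 over the coagulation genes and 0.17 over the complement genes. Both medians fell below 0 with library size alone, to -0.20 and -0.49. Under that scaling 5.06% of all genes tested were higher DEGs and 32.2% lower, and lower genes made up 86.4% of all DEGs in place of 57.0%. Against this background, 4 of 29 coagulation genes were higher and 5 lower, and 1 of 42 complement genes was higher and 5 lower, so that both classes held a smaller share of lower DEGs than all genes tested. Without ethanol replicate 3, 7 coagulation genes rose and 1 (Tfpi) fell, and 2 complement genes rose and 1 (C3ar1) fell, while 10.9% of all genes tested rose and 16.5% fell. The plot of fold changes by gene shows 39 of the 42 complement genes and all 29 coagulation genes tested, by role.

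**Figure D1:**
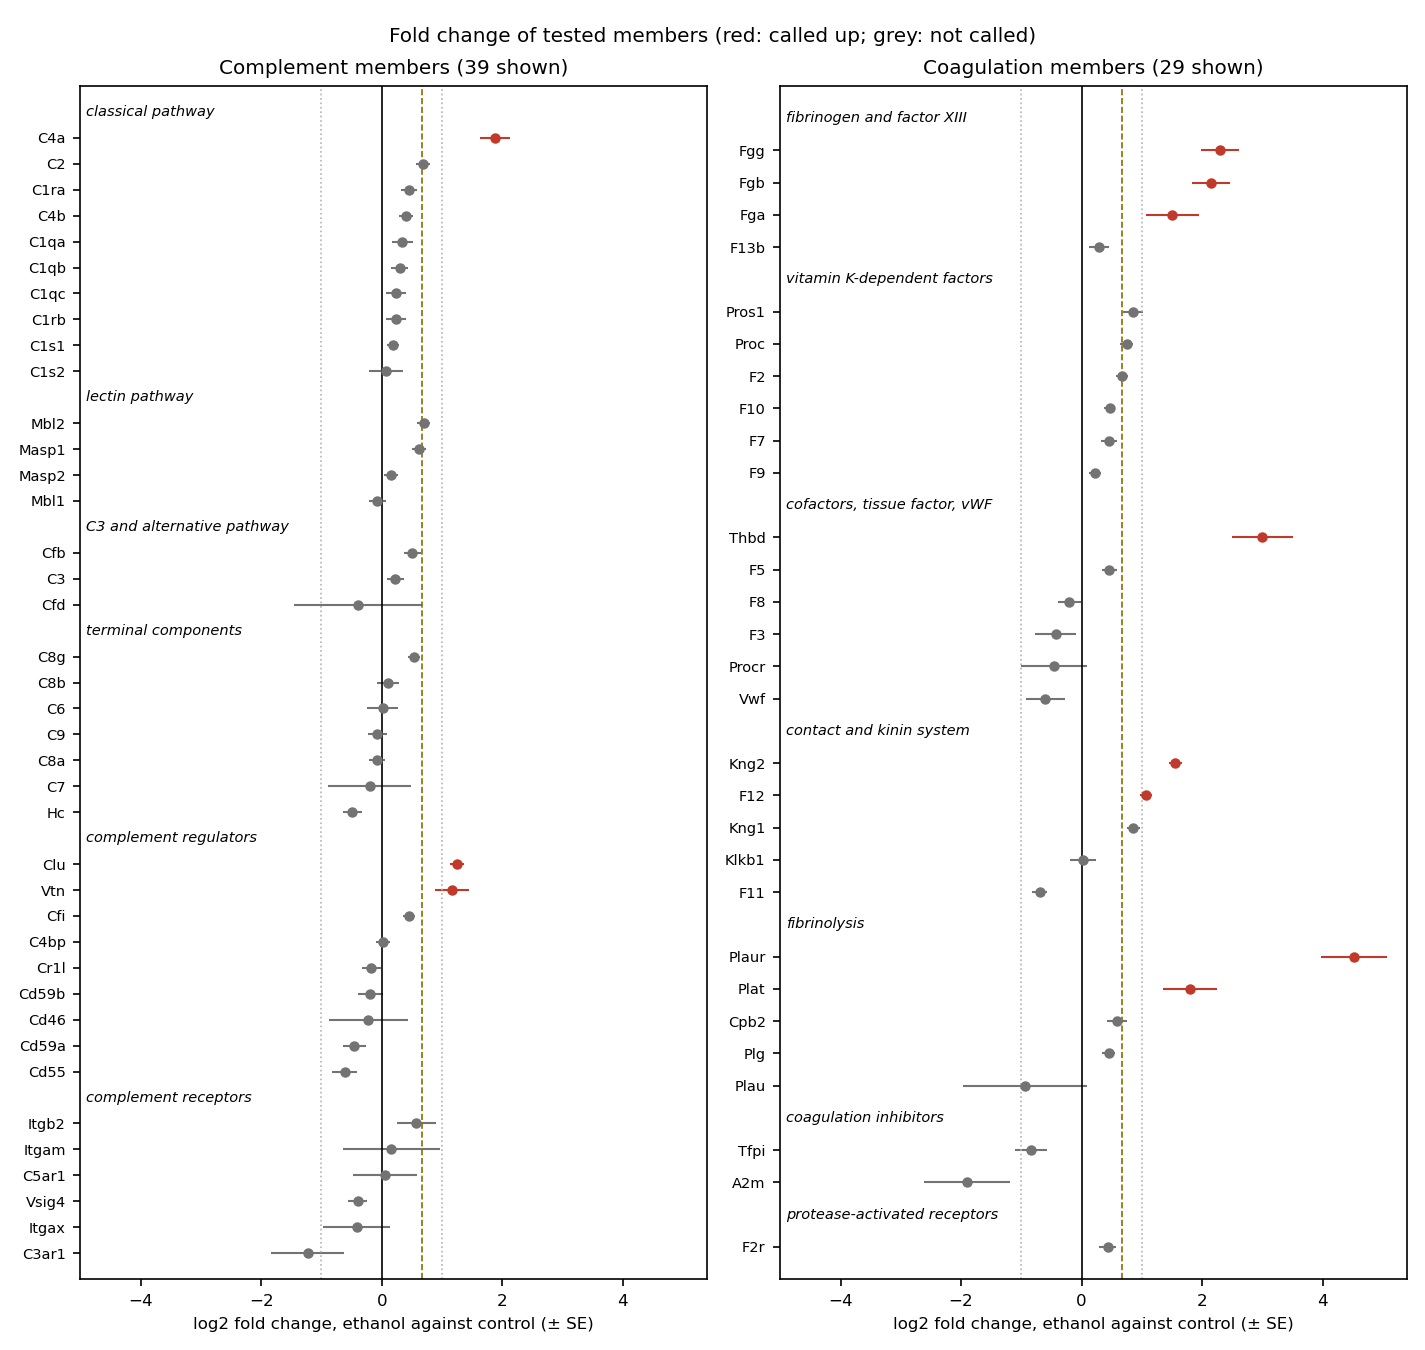
Log2 fold change of ethanol against control for 39 of the 42 complement genes and all 29 coagulation genes tested, grouped by role, with standard errors from edgeR (3 mice per group). Red points are DEGs and grey points are not, dotted lines mark a log2 fold change of 1 either way, and the dashed line lies at the point that becomes 0 when libraries are scaled by size alone; the 8 red coagulation genes outnumber the 3 red complement genes, and 3 complement genes without a call and Itgb2l are not drawn.

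By mean FPKM over the 6 libraries, the 3 fibrinogen genes were the most abundant members, although in control mice C3 (mean 1034 FPKM) lay above Fgb (917 FPKM). Fibrinogen is built from 3 chains encoded by Fga, Fgb and Fgg, which lie side by side on chromosome 3. In the coordinates of the deposited table, whose build could not be established, Fgg (ENSMUSG00000033860) spans 82915031 to 82922356 on the plus strand, Fga (ENSMUSG00000028001) 82933383 to 82940934 on the plus strand, and Fgb (ENSMUSG00000033831) 82947448 to 82957170 on the minus strand. Their promoters are printed because the 3 genes rose together and are textbook targets of interleukin-6. The sequences are from RefSeq on build GRCm38.p6, from 250 bases before to 50 bases after the gene start, read 5′ to 3′ on the strand of the gene: chr3:83025903-83026202 (plus) for Fga, chr3:83049814-83050113 (minus) for Fgb and chr3:83007474-83007773 (plus) for Fgg. Capitals mark matches to TTCNNNGAA (STAT), TTGCNNAA (C/EBP) or CTGGGAA (the class 2 interleukin-6 element) on either strand.
Fga: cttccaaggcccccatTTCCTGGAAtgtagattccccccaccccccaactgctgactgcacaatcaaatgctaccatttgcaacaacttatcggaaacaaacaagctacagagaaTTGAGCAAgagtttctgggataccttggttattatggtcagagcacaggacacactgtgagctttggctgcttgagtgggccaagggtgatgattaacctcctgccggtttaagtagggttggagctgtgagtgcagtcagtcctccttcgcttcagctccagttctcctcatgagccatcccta
Fgb: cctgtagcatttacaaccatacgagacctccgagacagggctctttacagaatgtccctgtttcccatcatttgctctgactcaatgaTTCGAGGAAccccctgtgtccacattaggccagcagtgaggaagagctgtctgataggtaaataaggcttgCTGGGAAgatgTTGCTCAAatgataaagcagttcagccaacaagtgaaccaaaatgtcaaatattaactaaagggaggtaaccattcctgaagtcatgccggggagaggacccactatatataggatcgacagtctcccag
Fgg: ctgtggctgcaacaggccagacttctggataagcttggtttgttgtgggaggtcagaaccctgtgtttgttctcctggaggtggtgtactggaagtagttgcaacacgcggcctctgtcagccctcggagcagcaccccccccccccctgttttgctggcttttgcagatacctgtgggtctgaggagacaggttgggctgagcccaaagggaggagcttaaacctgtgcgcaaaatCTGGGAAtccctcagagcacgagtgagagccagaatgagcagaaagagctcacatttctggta

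With position 0 as the first base of the gene, the Fga promoter held a STAT match at -234 and a C/EBP match at -135 on the opposite strand. The Fgb promoter held a STAT match at -162, a CTGGGAA match at -91 and a C/EBP match at -80, and the Fgg promoter a CTGGGAA match at -13. RefSeq promoters were found for 59 of the 79 members, among them 7 of the 11 that rose. CTGGGAA occurred in 14 of these 59 (23.7%) and in 11.1% of 27025 promoters of the same length. TTCNNNGAA occurred in 18.6% of members and 8.47% of all promoters, and TTGCNNAA in 25.4% and 10.8%. TTCNNNGAA and CTGGGAA can share bases, as they do in Vtn, where both end at position 43. Among the members that rose, CTGGGAA was found in Fgb, Fgg, Kng2 and Vtn, TTCNNNGAA in Fga, Fgb and Vtn, and TTGCNNAA in Fga, Fgb, Kng2 and Plaur. By class, TTGCNNAA was found in 10 of 25 coagulation promoters and 5 of 33 complement promoters, while CTGGGAA was found in 6 and 8 of them and TTCNNNGAA in 4 and 7. The longer HNF1 motif, present in 0.0629% of all promoters, matched Hc and no other member. F12 had a promoter without any of these letters. Such matches describe letters in a window and not bound sites.

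**Figure D2:**
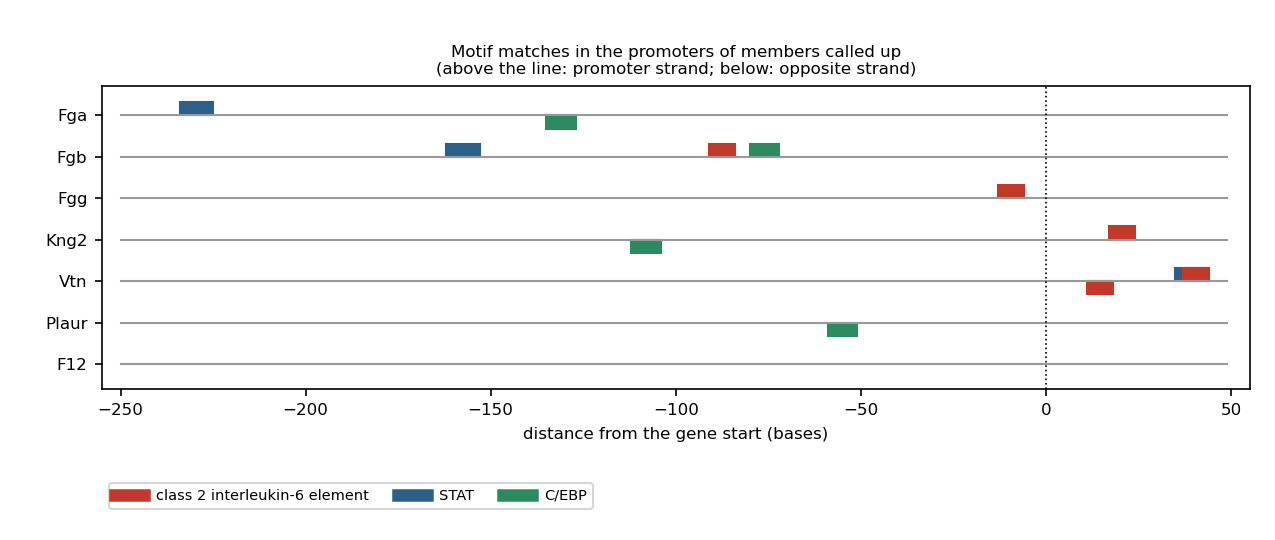
Positions of motif matches in the RefSeq promoters of the 7 members that rose and had one, by distance in bases from the gene start (dotted line at 0); boxes above a line lie on the promoter strand and boxes below on the opposite strand. Fgb carries all 3 kinds of match, F12 none, and in Vtn a CTGGGAA box covers part of a STAT box.

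Fgg, the gamma chain, was at 11438, 8585 and 20581 CPM in ethanol replicates 1 to 3 and at 2758, 2811 and 2674 CPM in control mice. All ethanol libraries lay above all control libraries, with replicate 3 far above the rest. The log2 fold change was 2.30 ± 0.31 (SE), a 4.93-fold rise (adjusted p = 0.00154), and 1.88 without ethanol replicate 3. Fgb, the beta chain, was at 11249, 8161 and 20104 CPM in ethanol and 3005, 3003 and 2880 CPM in control mice. Its ethanol libraries stood in the same order as for Fgg, all above the control mice, and it rose 4.45-fold (log2 fold change 2.15 ± 0.32, adjusted p = 0.00209), or by 1.72 on the log2 scale without ethanol replicate 3. Fgb and Fgg were DEGs in the same direction under all 16 alternative settings.

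Fga, the alpha chain, was at 7454, 4717 and 17515 CPM in ethanol and 3573, 3568 and 3328 CPM in control mice. Its groups did not overlap in CPM, but ethanol replicate 2 was close to the control mice, and in FPKM (1795, 1223 and 4172 against 1405, 1397 and 1301) it lay below them. The log2 fold change was 1.5 ± 0.44 with an adjusted p of 0.0293. Fga ceased to be a DEG without ethanol replicate 3 (0.81, adjusted p = 0.00735), without control replicate 1 (1.52, adjusted p = 0.0901), without control replicate 2 (1.52, adjusted p = 0.0905) and without control replicate 3 (1.47, adjusted p = 0.0975). With library size alone it was at 0.81 with an adjusted p of 0.13, and it was called in 7 of 16 alternatives.

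Because the chains are joined in equal numbers in the protein, their ratio within a library was also computed, which does not depend on the scaling between libraries. Per length, Fgg stood to Fga as 2.21, 2.62 and 1.69 in ethanol and as 1.11, 1.13 and 1.16 in control mice. Fgb stood to Fga as 0.907 to 1.37 in ethanol and 0.664 to 0.684 in control mice. The ratio of Fgg to Fgb was closer, at 1.85 to 1.91 in ethanol and 1.67 to 1.70 in control mice. The groups did not overlap in any of the 3 ratios, and the smaller rise of Fga thus appears in each ethanol library. In an exact two-sided permutation test, each ratio gave p = 0.1, the smallest that 3 against 3 allows (0.13 after Benjamini-Hochberg adjustment over 13 ratios). F13b, the carrier subunit of factor XIII, which cross-links fibrin, was at 172, 179 and 126 CPM in ethanol and 148, 120 and 123 CPM in control mice, with overlapping groups and an adjusted p of 0.192. F13a1, its catalytic subunit, had 0 counts in every ethanol library and 0, 23 and 20 in control mice. The filter on low counts kept it out of the edgeR test, DESeq2 called it lower (adjusted p = 0.0388), and edgeR did so without control replicate 1 (adjusted p = 0.03).

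The vitamin K-dependent factors (F2, F7, F9, F10, Proc and Pros1) need gamma-carboxylation to work and include prothrombin and proteins C and S. None reached the fold threshold with TMM scaling, and Pros1 alone did with the trend in transcript length removed (1.07, adjusted p = 0.0022). All 6 lay above the median of all tested genes under both scalings, and 5 passed the adjusted p alone with TMM scaling, where 21.5% of all genes tested were higher. With library size alone 0 were higher and 1, F9, was lower. By that rule at least 5.06% of all genes tested were higher and at least 32.2% lower, the shares that also passed the fold threshold. The 7 hepatocyte markers had log2 fold changes of 0.09 to 1.45 on the same TMM scale, and their part in these values was not tested. F2, prothrombin, was the most abundant per length at 320, 337 and 300 FPKM in ethanol and 331, 319 and 307 FPKM in control mice. These FPKM values overlapped, while the TMM-scaled counts did not (1920 to 2025 against 1201 to 1285 CPM, log2 fold change 0.67 ± 0.10, adjusted p = 0.00237). With library size alone the F2 value was 0.0007, so that its change is relative to other genes. Pros1, protein S, had the largest value of the group (0.85 ± 0.17), followed by Proc, protein C (0.75 ± 0.10), and F9, factor IX, the smallest (0.23 ± 0.10, adjusted p = 0.0935). F7 and F10, factors VII and X, were at 0.45 and 0.47 with TMM and at -0.22 and -0.20 with library size alone.

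In the contact and kinin system, F12 and Kng2 rose while F11 was lower. F12, factor XII, which starts the contact pathway (ENSMUSG00000021492, chromosome 13, 55565771 to 55574606, minus strand), was at 668, 617 and 666 CPM in ethanol and 304, 317 and 312 CPM in control mice. The libraries were tightly grouped and did not overlap. F12 rose 2.09-fold (log2 fold change 1.07 ± 0.10, adjusted p = 0.000379), just past the fold threshold. Kng2, a second kininogen gene of the mouse (ENSMUSG00000060459, chromosome 16, 22804604 to 22848232, minus strand), was at 500, 523 and 534 CPM against 195, 163 and 172 CPM. It rose 2.94-fold (1.56 ± 0.11, adjusted p = 0.000173) with no overlap. Gm6493 overlaps Kng2 on the same strand, so reads of the pair may not be separable. With library size alone, F12 (0.40) and Kng2 (0.89) stayed higher but within the fold threshold.

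Kng1, kininogen 1, the precursor of bradykinin, was the most abundant of this group at 566, 595 and 577 FPKM in ethanol and 546, 483 and 500 FPKM in control mice. Its log2 fold change of 0.86 ± 0.11 (adjusted p = 0.00116) stayed under the fold threshold, and it was a DEG with the trend in transcript length removed (1.06). The ratio of Kng2 to Kng1 was 0.234 to 0.251 in ethanol and 0.145 to 0.155 in control mice. In the GENCODE transcripts, 2.10% of the 150-base stretches of Kng2 occur unchanged in Kng1, so few reads could be shared. F11, factor XI, which factor XII activates, was at 47.9, 42.1 and 36.5 CPM in ethanol and 65.4, 68.5 and 70.8 CPM in control mice, lower in all 3 ethanol libraries (-0.69 ± 0.12, adjusted p = 0.0043). It was a DEG with library size alone (-1.36, adjusted p = 0.000271) and under all 3 limma settings. Per length, F12 stood to F11 as 16 to 20.9 in ethanol and 5.03 to 5.31 in control mice, the widest parting of the 13 ratios. Klkb1, plasma kallikrein, overlapped between the groups at 138 to 241 and 188 to 224 CPM (0.03 ± 0.22). The kinin receptors Bdkrb1 and Bdkrb2 had at most 23 counts in any library.

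Among the cofactors, Thbd rose. Thbd encodes thrombomodulin, the endothelial receptor through which thrombin activates protein C (ENSMUSG00000074743, chromosome 2, 148246386 to 148250108, minus strand). It was at 10.7, 13 and 38.6 CPM in ethanol and 2.16, 2.98 and 2.62 CPM in control mice. Every ethanol library was above every control library and replicate 3 was the highest. The rise was 8.01-fold (3.0 ± 0.51, adjusted p = 0.0036), and without ethanol replicate 3 the log2 fold change was 2.20 (adjusted p = 7.69e-05). Thbd was a DEG under all 16 alternatives. Of 7 markers of liver endothelium, 2 rose (Lyve1 and Cdh5) and 1 fell (Kdr), and their summed level was 16.2 to 31.8 FPKM in ethanol, highest in replicate 3, and 23.5 to 28 FPKM in control mice. Their part in the change of Thbd was not tested.

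F5, factor V, was the most abundant cofactor at 43.7, 47.8 and 34.4 FPKM in ethanol and 48.7, 50.0 and 46.6 FPKM in control mice. The FPKM of ethanol replicate 2 lay among the control mice and the other ethanol libraries below them, whereas the fitted log2 fold change was 0.46 ± 0.13 (adjusted p = 0.0234) with TMM and -0.20 with library size alone. F8, Vwf, F3 and Procr, which encode factor VIII, von Willebrand factor, tissue factor and the endothelial protein C receptor, had log2 fold changes of -0.20, -0.60, -0.43 and -0.46, groups that overlapped in CPM and adjusted p from 0.169 to 0.523. In FPKM all ethanol libraries of these 4 genes lay below all control libraries, as did those of 39 of the 72 members and 57.4% of all genes tested, and with library size alone Vwf (-1.27, adjusted p = 0.0127) and F3 (-1.08, adjusted p = 0.0344) were lower DEGs. Both inhibitors had negative log2 fold changes. Tfpi, which blocks tissue factor, was at 1.43, 1.99 and 2.60 CPM in ethanol and 3.53, 3.83 and 3.42 CPM in control mice (-0.84 ± 0.27, adjusted p = 0.0387). It was a DEG without ethanol replicate 3 (-1.06, adjusted p = 0.00699), with library size alone (-1.51, adjusted p = 0.00265) and with limma on log2(FPKM + 0.1). Tfpi missed the adjusted p with no filter, the length trend removed or the replicate block. The same held without ethanol replicate 1 or 2 and without control replicate 2 or 3 (adjusted p up to 0.118). A2m, alpha-2-macroglobulin, a broad protease inhibitor, had 4, 5 and 6 counts against 12, 24 and 45. Its log2 fold change of -1.90 ± 0.72 missed the adjusted p (0.0688). A2m was a DEG in 2 of the 13 alternatives that tested it, without control replicate 1 (-2.29, adjusted p = 0.0486) and with library size alone (-2.56, adjusted p = 0.0194). With a library left out, its value ran from -2.29 to -1.33, with adjusted p up to 0.272.

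In fibrinolysis, Plaur and Plat rose. Plaur encodes the urokinase receptor, present on leukocytes and activated epithelial cells (ENSMUSG00000046223, chromosome 7, 24161909 to 24175393, plus strand). It was at 2.42, 2.81 and 5.77 CPM in ethanol and 0.0746, 0.197 and 0.206 CPM in control mice, or 139, 172 and 315 counts against 7, 15 and 17. The groups were far apart and ethanol replicate 3 was the highest. Plaur had the largest fold change of all members, 23.0-fold (4.52 ± 0.54, adjusted p = 0.000968), and 4.05 on the log2 scale without ethanol replicate 3. It was a DEG in 14 of the 15 alternatives that tested it. Of 7 neutrophil markers 6 were tested and 5 rose, and their summed level was 2.51 to 14.6 FPKM in ethanol, highest in replicate 3, and 0.737 to 0.971 FPKM in control mice. Ly6g was detected in ethanol replicate 3 alone. The part of neutrophils in the level of Plaur was not tested.

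Plat, tissue plasminogen activator (ENSMUSG00000031538, chromosome 8, 23247743 to 23272860, plus strand), was at 3.22, 2.73 and 1.56 CPM in ethanol and 0.384, 0.748 and 1.03 CPM in control mice. The groups did not overlap in CPM, but the lowest ethanol library and the highest control library both held 85 counts, and in FPKM they overlapped. Its log2 fold change was 1.80 ± 0.45 (adjusted p = 0.0164), and it was no DEG without ethanol replicate 1 (1.57, adjusted p = 0.0580) or without control replicate 2 (1.82, adjusted p = 0.0581), nor with library size alone (1.13, adjusted p = 0.0663). Plg, plasminogen, was the most abundant of the group at 456, 473 and 475 FPKM in ethanol and 560, 547 and 534 FPKM in control mice. Its FPKM was lower in each ethanol library, while the fitted value was 0.45 ± 0.10 (adjusted p = 0.0124) with TMM and -0.22 with library size alone. Cpb2, which protects fibrin from plasmin, had a log2 fold change of 0.59 ± 0.17 (-0.08 with library size alone), and Plau, urokinase, had 16, 22 and 0 counts against 31, 48 and 23 (adjusted p = 0.485). The only protease-activated receptor that passed the filter was F2r, a thrombin receptor, at 30.7, 29.5 and 38.2 CPM in ethanol and 21.2, 26.5 and 25.1 CPM in control mice (0.43 ± 0.14, -0.24 with library size alone). Platelet markers, of which 4 of 7 were tested and 2 rose, summed to 1.94 to 2.56 FPKM in ethanol and 0.658 to 1.07 FPKM in control mice, with Gp6 listed at 0 throughout.

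**Figure D3:**
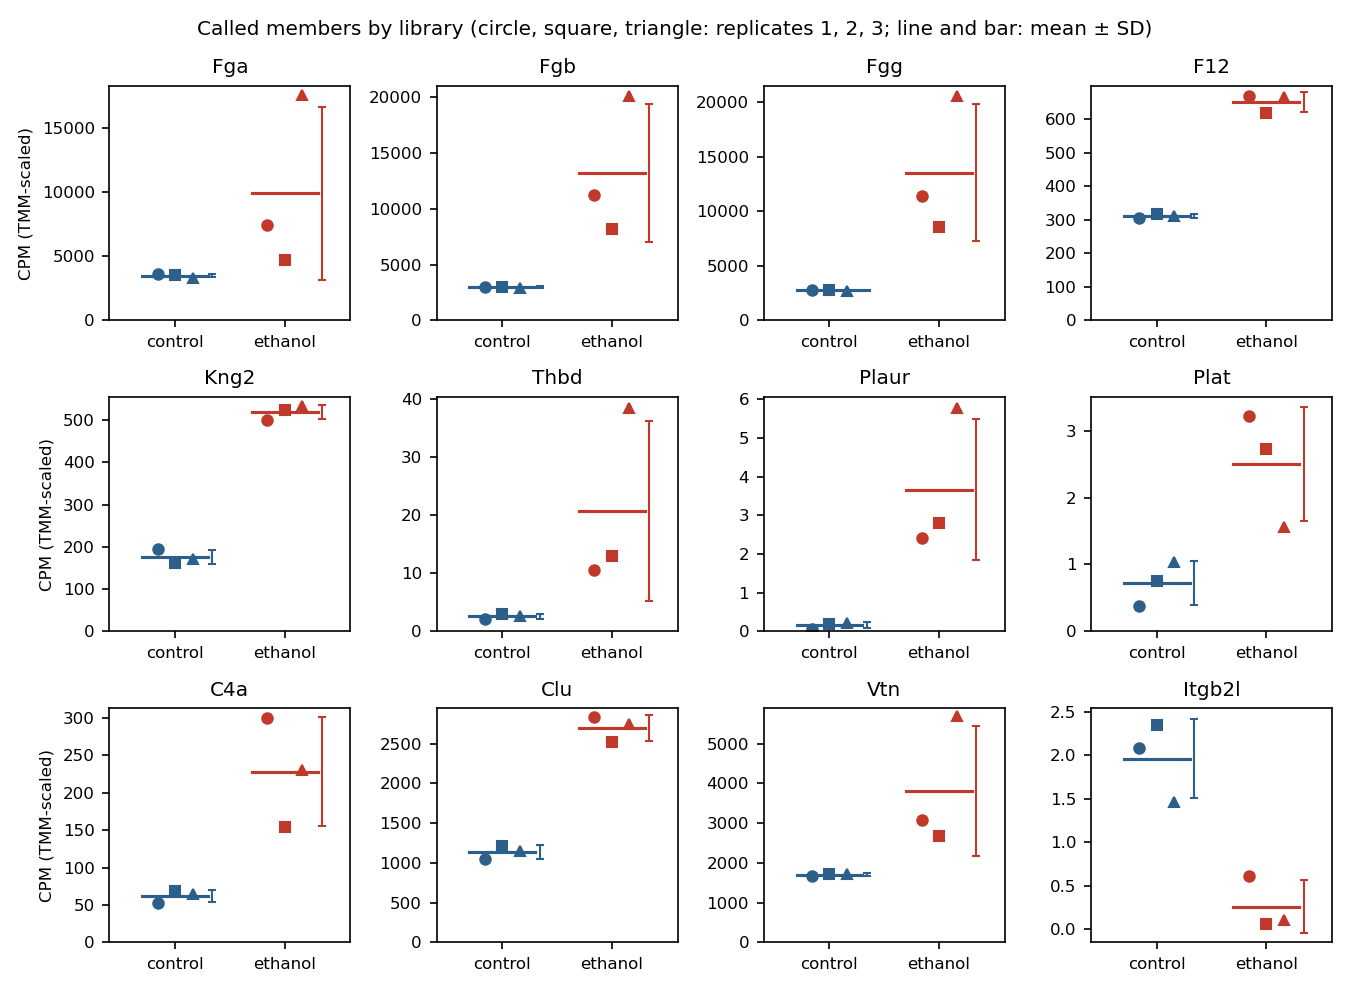
TMM-scaled counts (CPM) of the 12 members that were DEGs, by library. Circles, squares and triangles are replicates 1, 2 and 3, which were not treated as pairs. Lines are means and bars are SD (3 mice per group). Ethanol replicate 3 stands well above the other libraries for Fga, Fgb, Fgg, Thbd, Plaur and Vtn, while F12, Kng2 and Clu are tightly grouped.

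In the classical pathway of complement, C4a rose and its close relative C4b did not reach the fold threshold. C4a (ENSMUSG00000015451, chromosome 17, 35028069 to 35042440, minus strand) is the second C4 gene of the mouse, also called sex-limited protein. It was at 300, 155 and 230 CPM in ethanol and 52.5, 68.7 and 64.6 CPM in control mice. The groups were clearly apart, and C4a rose 3.68-fold (1.88 ± 0.25, adjusted p = 0.00134). It was a DEG under all 16 alternatives. C4b, the main C4 gene and the most abundant of this pathway per length, was at 1326, 1174 and 1314 CPM against 911, 1038 and 942 CPM (0.40 ± 0.11, adjusted p = 0.0264), a direction that turned to -0.27 with library size alone. Per length, C4a stood to C4b as 0.121 to 0.207 in ethanol and 0.0528 to 0.0629 in control mice (exact permutation p = 0.1, the smallest possible). C4a and C4b share 8.27% of the 150-base stretches of the C4a transcript, so some reads could not be told apart between them.

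The C1q chains, which recognise antibody on surfaces and are made by macrophages, overlapped between the groups. C1qa was at 21.0, 14.7 and 21.3 CPM in ethanol and 13.8, 14.7 and 16.5 CPM in control mice, and the log2 fold changes of C1qa, C1qb and C1qc were 0.34, 0.30 and 0.24 with adjusted p from 0.129 to 0.277. Their ratios within a library overlapped as well, with exact permutation p of 0.7 for C1qb to C1qa and 0.3 for C1qc to C1qa. Of the 7 Kupffer cell markers, edgeR called 0 higher and 0 lower, with 3 lower at an unadjusted p under 0.05 and no fold threshold, and a summed level of 22.0 to 28.6 FPKM in ethanol and 46.7 to 48.6 FPKM in control mice. Among the proteases that C1q activates and their substrate, C1ra (0.45 ± 0.14, adjusted p = 0.032) and C2 (0.69 ± 0.11, adjusted p = 0.00331) passed the adjusted p alone, and C1rb, C1s1 and C1s2 did not. C1ra was at -0.21, C2 at 0.02 and the C1q chains between -0.44 and -0.33 with library size alone. C1ra and C1rb share 32.6% of the 150-base stretches of the C1rb transcript, so that their counts are uncertain.

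The lectin pathway held no DEG. Mbl2, a mannose-binding lectin and the most abundant of the 4 genes, was at 280, 307 and 251 CPM in ethanol and 174, 175 and 167 CPM in control mice, without overlap (0.70 ± 0.11, adjusted p = 0.00272, and 0.03 with library size alone). Its relative Mbl1 overlapped at 88.8 to 127 CPM and 112 to 120 CPM (-0.07 ± 0.14). Of the proteases that bind these lectins, Masp1 passed the adjusted p alone (0.62 ± 0.11, and -0.05 with library size alone) and Masp2 did not (0.16 ± 0.11).

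C3, where all pathways meet, was at 4647, 5386 and 5790 CPM in ethanol and 5036, 4329 and 4156 CPM in control mice. The groups overlapped, with control replicate 1 above ethanol replicate 1 (0.23 ± 0.14, adjusted p = 0.223), and the value was -0.44 with library size alone. Cfb, factor B of the alternative pathway, was at 993 to 1327 CPM against 830 to 874 CPM (0.51 ± 0.14, adjusted p = 0.0226), and its value was -0.16 with library size alone. Cfd, factor D, was low and scattered, with 44, 68 and 5 counts in ethanol and 7, 89 and 112 in control mice.

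The terminal components (Hc, C6, C7, C8a, C8b, C8g and C9) had a median of -0.03 relative to all genes tested, with 3 genes above the median of all genes and 4 below it under both scalings. The relative median was -0.34 with limma on log2(FPKM + 1), -0.25 with a mean FPKM of at least 1 and -0.04 with log2(FPKM + 0.1). With each library left out in turn it ran from -0.14 (without control replicate 1) to 0.12 (without ethanol replicate 3). With the replicate block it was 0.08. Hc, which encodes C5, was lower (-0.49 ± 0.16, adjusted p = 0.0448), at 738, 628 and 516 CPM in ethanol and 779, 967 and 889 CPM in control mice. It became a DEG with library size alone (-1.15, adjusted p = 0.0012) and under all 3 limma settings. Hc missed the adjusted p with RLE factors, the length trend removed, no filter or the replicate block. It also missed it without ethanol replicate 2 or 3 and without any control library. C9, which polymerises into the pore and was the most abundant per length, was at 588, 450 and 456 CPM in ethanol and 451, 602 and 519 CPM in control mice, with full overlap (-0.07 ± 0.16). The chains of C8 parted. C8g, the small gamma chain, was at 346, 303 and 331 CPM against 223, 227 and 227 CPM (0.53 ± 0.10, adjusted p = 0.00532, and -0.14 with library size alone), while C8a (-0.08 ± 0.14) and C8b (0.11 ± 0.18) overlapped. Per length, C8g stood to C8a as 1.19 to 1.61 in ethanol and 0.826 to 0.903 in control mice. C8b to C8a also did not overlap but differed less, at 0.783 to 0.922 and 0.698 to 0.770. C7 had 20 to 125 counts, and C6 overlapped at 173 to 297 and 164 to 277 CPM.

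Among the soluble and membrane regulators, Clu and Vtn rose. Both proteins bind the forming pore and keep it out of membranes. Clu, clusterin (ENSMUSG00000022037, chromosome 14, 66205932 to 66218996, plus strand), was at 2828, 2515 and 2742 CPM in ethanol and 1049, 1218 and 1151 CPM in control mice. The libraries of each group were close together, and Clu rose 2.37-fold (1.24 ± 0.12, adjusted p = 0.000387), or by 0.57 on the log2 scale with library size alone, where it was no DEG. Vtn, vitronectin (ENSMUSG00000017344, chromosome 11, 78389917 to 78393150, plus strand), was at 3076, 2667 and 5694 CPM in ethanol and 1664, 1731 and 1712 CPM in control mice. The groups did not overlap and ethanol replicate 3 was the highest (1.16 ± 0.28, adjusted p = 0.014). Vtn ceased to be a DEG without ethanol replicate 3 (0.77, adjusted p = 0.00062) and without control replicate 1 (1.14, adjusted p = 0.0545), 2 (1.17, adjusted p = 0.0538) or 3 (1.16, adjusted p = 0.0547), and with library size alone (0.48, adjusted p = 0.149). Relative to C3 within a library, Clu was at 0.699 to 0.911 in ethanol and 0.312 to 0.421 in control mice, and Vtn at 1.25 to 2.49 and 0.837 to 1.04.

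None of the other regulators was a DEG with TMM scaling. Cfi, factor I, which cleaves C3b, passed the adjusted p alone (0.45 ± 0.10), and C4bp, which restrains C4b, did not (0.02 ± 0.12, adjusted p = 0.895). Both were below 0 with library size alone. The 5 membrane regulators tested lay below the median of all tested genes under both scalings, which splits all genes evenly. With TMM they were also below 0 in log2 fold change. With the length trend removed, 3 of the 12 regulators tested were below 0. Cd55, which breaks up convertases on cells, was at 3.68, 4.24 and 4.86 CPM in ethanol and 7.43, 5.28 and 6.85 CPM in control mice (-0.61 ± 0.20, adjusted p = 0.0446). It was a DEG with library size alone (-1.28, adjusted p = 0.00174) and with limma on log2(FPKM + 0.1). Cd55 missed the adjusted p with no filter, the length trend removed or the replicate block. The same held without ethanol replicate 1 or 2 and without control replicate 1 or 3. Cd59a, which blocks the pore, was lower in all 3 ethanol libraries without passing the test (16.9 to 27.0 against 29.8 to 34.3 CPM, adjusted p = 0.0906), and was a DEG with library size alone (-1.12, adjusted p = 0.00342) and under all 3 limma settings. The values of Cd59b, Cr1l and Cd46 overlapped. Cd55b had 0 counts in all libraries.

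No complement receptor was a DEG with TMM scaling. Vsig4, the C3b receptor of Kupffer cells and the most abundant of the receptors, was at 10.9, 8.72 and 9.16 CPM in ethanol and 10.9, 14.6 and 12.6 CPM in control mice (-0.40 ± 0.16, adjusted p = 0.0827), and was a DEG with library size alone (-1.07, adjusted p = 0.0013). The Kupffer marker sum given above is in FPKM, and on the TMM scale of this value the 7 markers ran from -0.71 to 0.22. Their part was not tested. C3ar1, the receptor of C3a, had 20, 10 and 46 counts in ethanol and 84, 109 and 69 in control mice (-1.23 ± 0.61, adjusted p = 0.142). The high library was ethanol replicate 3, without which C3ar1 was a DEG (-2.03, adjusted p = 0.0132), as it was with library size alone (-1.92, adjusted p = 0.0276). The integrins of complement receptors 3 and 4 (Itgam, Itgax and Itgb2) and C5ar1 overlapped, with log2 fold changes of -0.41 to 0.58. Itgam, also a neutrophil gene, was at 0.156, 0.164 and 0.971 CPM in ethanol and 0.277, 0.315 and 0.559 CPM in control mice.

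Itgb2l, an integrin beta chain related to Itgb2 and found in neither class (ENSMUSG00000000157, chromosome 16, 96223488 to 96244819, minus strand), was the only member that fell by the DEG thresholds. It had 35, 4 and 6 counts in ethanol and 195, 179 and 120 in control mice. The groups did not overlap, and it was 7.47-fold lower (-2.90 ± 0.76, adjusted p = 0.0197). It was no DEG without control replicate 1 (-2.86, adjusted p = 0.0622) or control replicate 2 (-2.75, adjusted p = 0.0667), and without ethanol replicate 1 the value was -4.47. Gm49948 overlaps it on the opposite strand.

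**Figure D4:**
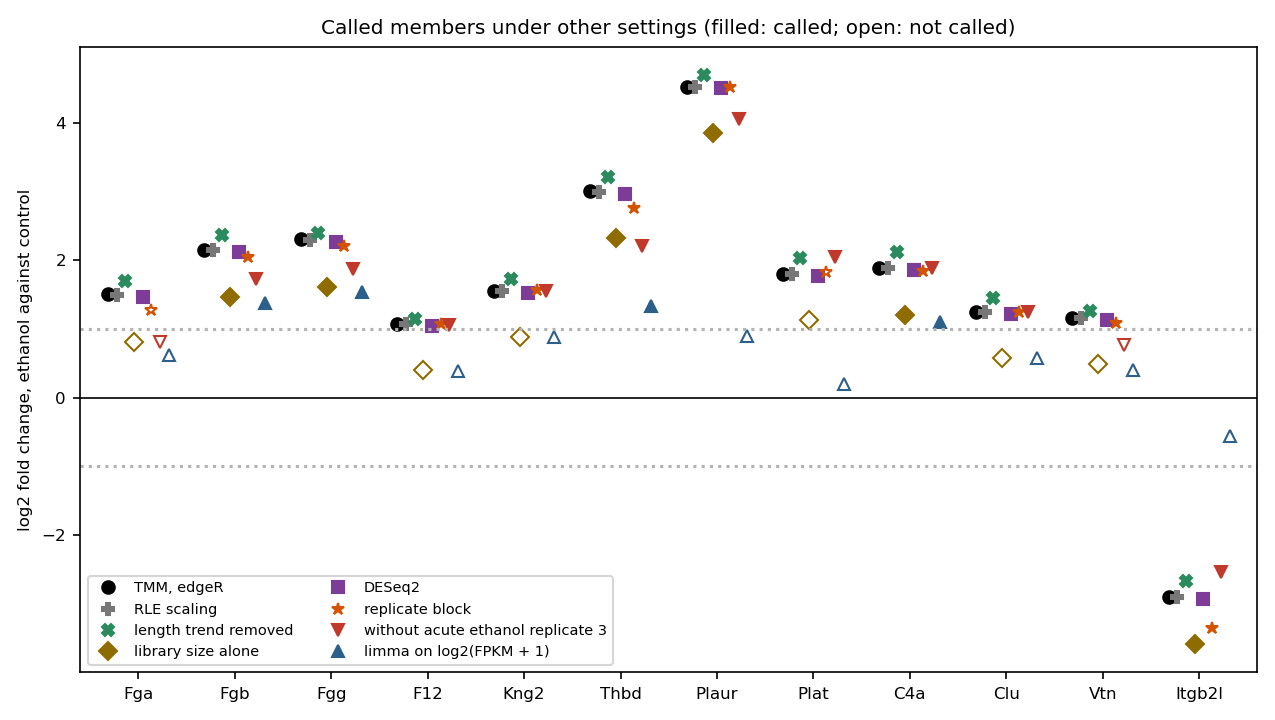
Log2 fold change of ethanol against control for the 12 DEGs under 8 settings, with filled markers where the gene was a DEG and open markers where it was not; limma values are on the log2(FPKM + 1) scale, which understates low genes. Fgb, Fgg, Thbd and C4a are filled at every setting drawn, and Fga, Plat and Vtn are open at several.

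The ratios of members within a library set out which genes of one complex or pathway moved apart. Of 13 ratios, 10 did not overlap between the groups, and each gave the smallest p of the exact permutation test (0.1, or 0.13 after adjustment). The largest differences were those of F12 to F11 (log2 difference 1.77), C4a to C4b (1.44) and Clu to C3 (1.02). Hc to C3 overlapped (0.0732 to 0.130 in ethanol and 0.127 to 0.183 in control mice, exact permutation p = 0.2). These ratios were chosen after the values were seen, several by joining a DEG to a partner that was none. Their count and p therefore carry no support and are descriptions of the 6 libraries. No share over other gene pairs was computed.

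**Figure D5:**
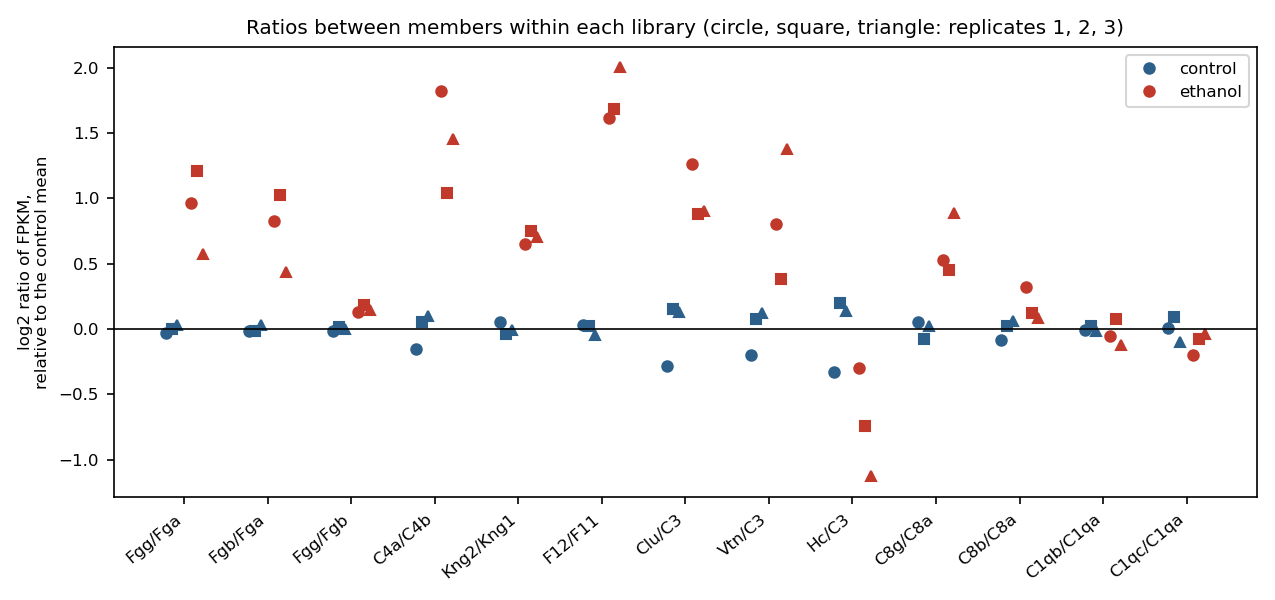
Log2 ratio of FPKM between pairs of members in each library, set to the mean of the control mice; blue is control, red is ethanol, and circles, squares and triangles are replicates 1, 2 and 3. F12 to F11 and C4a to C4b lie furthest above the control mice, while the C1q ratios and Hc to C3 overlap.

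Genes of the same systems that lack the KEGG term were counted in 3 lists. By edgeR 4 of their 28 tested genes fell (14.3%), near the 13.8% of all genes tested. None of the 28 rose, also at an unadjusted p under 0.05 with the fold threshold, while 10.4% of all genes tested rose at the adjusted p. Without a fold threshold 9 were higher and 7 lower at the unadjusted p. By that rule at least 21.5% of all genes tested were higher and at least 21.5% lower, the shares that passed the adjusted p. In the vitamin K cycle and factor secretion list, 1 of 7 genes fell. This was Ggcx, the gamma-carboxylase that activates the vitamin K-dependent factors, at 28.3, 26.0 and 27.6 CPM in ethanol and 59.8, 56.1 and 53.4 CPM in control mice (-1.05 ± 0.10, adjusted p = 0.000385), and with the trend in transcript length removed it was just inside the fold threshold at -0.85. Of 10 other coagulation and fibrinolysis genes, 2 fell. Tfpi2, a protease inhibitor related to Tfpi, was at 20.2, 19.3 and 15 CPM against 72.2, 69.7 and 68.4 CPM (-1.95 ± 0.14, adjusted p = 0.000149) and was a DEG under all 16 alternatives. Plgrkt, a plasminogen receptor, was at 2.12, 0.932 and 2.53 CPM against 4.49, 4.53 and 5.37 CPM (-1.37 ± 0.36, adjusted p = 0.0208), and missed the adjusted p without control replicate 1 (0.0563), 2 (0.0575) or 3 (0.0747).

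Of the 11 other complement genes tested, 1 fell. C5ar2, the second receptor of C5a, had 0, 7 and 9 counts in ethanol and 92, 73 and 68 in control mice (-3.29 ± 0.86, adjusted p = 0.0191). The groups were far apart, but the call was lost without control replicate 1 (0.0673), 2 (0.0669) or 3 (0.0616), and Gm26473 overlaps it on the same strand. The median log2 fold changes of the 3 lists were -0.17, 0.10 and 0.05, against -0.04 over all genes tested.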

How the data were processed

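Liver RNA of 3 acute ethanol-exposed and 3 control mice, each library from 1 mouse, was sequenced with paired Illumina reads of 150 bases. For each gene the authors deposited a whole-number read count that was not normalized. Beside it they deposited FPKM, which is scaled by the authors to transcript length and library size. The aligner, the counting software and the use of strand are not given in the sources used here. The submitters' processing notes name GRCm38 and mm10, yet 0 of 79 members and 2.27% of 27049 genes share a start or end with the GENCODE M21 annotation of that build, so coordinates are given as in the table. The table held 1 column of counts that matched no sample and was not used.

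Members were read from the KEGG column and sorted into roles by hand, with earlier results of these data known, as were the lists. Genes were kept by filterByExpr (16717), scaled by TMM and tested with edgeR 4.0.16 (quasi-likelihood, two-sided, Benjamini-Hochberg over all genes tested) in R 4.3.3, after the test had been tested on simulated data. Standard errors are the fold change divided by the root of F. Named with values are the DEGs among members and companion genes, the most abundant member of each role, complete chain sets and members beyond a log2 fold change of 1 that missed the adjusted p. Other members were added after their values were seen, and some members are counted but not reported here.

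Alternatives were RLE factors, library size alone, removal of the length trend, no filter, DESeq2 1.42.0, limma 3.58.1 on log2(FPKM + 1) or log2(FPKM + 0.1) with a mean of at least 0.1 or 1 FPKM, no fold threshold, the replicate number as a block and each library left out. At this depth the number of mice, more than the counting of reads, sets the precision of all but low genes. Libraries of 1 group differed by 49.6 to 496 times the chi-square that sampling alone gives, and each was counted once.

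Marker lists of 10 cell types were fixed. Beside those in the report, 2 of 7 stellate cell markers fell, 1 of 5 monocyte markers rose and 1 fell, 1 of 5 cholangiocyte markers rose and 1 of 4 B cell markers fell. Of T cell markers 2 of 5 were tested by edgeR and neither was a DEG (1, Cd3g, was lower at an unadjusted p under 0.05).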

Additional observations from a re-analysis of the deposited data

How the results depend on the processing

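Of the 12 members that were DEGs, Fgb, Fgg, Thbd and C4a stayed DEGs in the same direction under all 16 alternatives and Plaur under 14 of 15. Clu, F12 and Kng2 did so under 12 of 16 and Itgb2l under 12 of 15, Plat under 9 of 15, Vtn under 8 of 16 and Fga under 7 of 16. The cause was not tested for any change of call. With library size alone, 4 coagulation genes were higher and 5 lower, and 1 complement gene was higher and 5 lower, against 5.06% higher and 32.2% lower among all genes tested. With limma on log2(FPKM + 1), 3 coagulation genes were higher and 1 lower, and 1 complement gene was higher and 2 lower, against 2.55% higher and 10.7% lower among all genes tested. The same member counts were found with a mean FPKM of at least 1 (4.09% and 16.9% of all genes). With limma on log2(FPKM + 0.1) the member counts were 4, 2, 1 and 5 (4.7% and 31% of all genes). DESeq2 called 1 coagulation gene lower, F13a1. With the length trend removed, 10 coagulation genes rose, Kng1 and Pros1 among them, and 0 fell, and 3 complement genes rose (12.5% and 10.6% of all genes rose and fell). Without a fold threshold, 18 coagulation genes were higher and 2 lower, and 11 complement genes were higher and 2 lower. Leaving out each library in turn gave 6 to 8 coagulation genes higher and 0 to 2 lower, and 2 to 3 complement genes higher and 0 to 1 lower. Among all genes tested in these fits, 8.57% to 10.9% rose and 9.88% to 16.5% fell. The 2 lower without control replicate 1 were A2m and F13a1.

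Values of genes that were not DEGs reversed sign. With library size alone the log2 fold changes were -0.44 for C3, -0.27 for C4b, -0.24 for F2r, -0.20 for F5 and -0.22 for Plg. Masp1, Cpb2, C8g, Cfb, F10, C1ra, F7 and Cfi, which had passed the adjusted p alone, also turned, to between -0.22 and -0.05, as did the C1q chains, to between -0.44 and -0.33. The 3 limma settings gave -0.45 for C3, -0.27 for C4b, -0.0036 for F2, -0.21 to -0.24 for F2r, -0.21 to -0.22 for F5 and -0.23 for Plg. C9 was at 0.080 with the length trend removed and 0.037 without control replicate 2.

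The groups share replicate numbers, but same-numbered libraries did not deviate together (correlations of -0.044, -0.034 and -0.0070). With 3 libraries per group this cannot settle whether the numbers pair mice, and the main fit used no pairing. With the replicate block, 6 coagulation genes rose (Fga and Plat were lost) and 0 fell, and 3 complement genes rose and 0 fell. Among all genes tested, 9.08% rose and 12% fell with the block.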
